A study of Homo sapiens with 3 samples.

Results

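The genes described here are those of the ATF4 arm of the stress response, of amino acid synthesis and transport, and of the cytosolic aminoacyl-tRNA synthetases. They come from a list of 45 gene names that applies no threshold to the values, although earlier results of these data were known when it was drawn up. Of these, 43 had at least 1 probe set annotated to them alone, 64 probe sets in all, and 11963 genes in all had one. SESN2, an amino acid sensor, was not analysed here, and MARS1, the methionyl-tRNA synthetase, had only probe sets that were also annotated to a microRNA gene.

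The RNA came from CAL 27 cells, an established line of a poorly differentiated squamous cell carcinoma of the tongue, and was measured on 3 Affymetrix arrays, 1 for each stably transfected construct. The vector array came from cells carrying the empty plasmid pEGFPC1, which expresses green fluorescent protein (GFP). The nm23-H1 array came from cells carrying the same plasmid with nm23-H1, which express GFP-Nm23-H1, and the nm23-H2 array from cells carrying it with nm23-H2. The series' design names nm23-H1 clones and 1 empty vector clone, and does not mention nm23-H2. The cells of all 3 arrays were grown in the same kind of medium with serum and glutamine. Construct, clone and array coincide, so they cannot be told apart. Each group has 1 array, so there is no replicate error and no p-value is given. In RNA from whole cultures, fewer cells expressing a gene and less of its RNA per cell cannot be told apart either.

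Cells that lack an amino acid or accumulate misfolded proteins phosphorylate the translation factor eIF2. General translation then falls, while the transcription factor ATF4 is translated more efficiently. ATF4, often together with C/EBP partners, switches on genes that make, import and charge amino acids, and also genes that limit the response, such as TRIB3 and PPP1R15A. Because ATF4 is controlled largely at translation, its transcript level is not a measure of its protein.

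Signals are given in units of the scaled array signal. Values below 28.3 units, the median of all scaled values, were set to this floor, and differences are on the log2 scale. A member was called different at 2-fold, a log2 difference of 1. As the measure of error (probe error), the difference was compared between the 2 brightest probe sets of genes with more than 1. Both had to exceed the floor on both arrays. The SD of their disagreement, divided by the square root of 2, was taken. On the log2 scale it was 0.33 when nm23-H1 was set against vector, 0.36 when nm23-H2 was, and 0.39 between the transfectants. The probe error does not cover cultures, clones or hybridisations, nor genes at the floor. All 43 genes exceeded the floor somewhere, and 41 of them on all 3 arrays.

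The transfected genes were higher on their own arrays. NME1 was at 1519 units with vector, 2379 with nm23-H1 and 1132 with nm23-H2, and the probe set of NME2, which its read-through transcript with NME1 shares, at 2272, 2323 and 4845. All 8 squamous epithelial markers with a probe set were above the floor on every array, with summed signals between 27208 and 42949 units. This sum was highest with nm23-H2 and lowest with nm23-H1, and its part in the results was not tested. Fibroblast, leukocyte and endothelial markers summed to at most 166 units per list and array, and no single one was above 58.0 units. Of 8000 genes measured, nm23-H1 differed from vector by 2-fold or more for 173 upward and 137 downward, and nm23-H2 for 283 and 290. Without scaling these splits were 212 to 92 and 630 to 108, and between the transfectants 172 to 494 in place of 299 to 299.

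The promoters of these genes are shown because ATF4 acts through a short DNA element, the C/EBP-ATF response element. The letters TGATG, any base and AA were searched on both strands from 250 bases before to 50 bases after each start site in RefSeq promoters of GRCh38.p14. Of the 45 genes, 36 had a promoter entry, and 13 of these 36 (36.1%) held the element in a promoter. It was found in 4.46% of all 27305 genes with an entry, in 3.62% of all 35116 promoters, and in 3.02% of the 6593 measured genes with an entry. Because the list was drawn up around ATF4, its higher share is not independent of that choice. By role, it was found in 1 of 10 regulator genes, 1 of 7 synthesis genes, 4 of 5 transporter genes and 7 of 14 genes of tRNA charging and export. All 13 matches are shown, which was decided after the values were seen. They are written 5′ to 3′ along the gene's strand with the element in capitals, so that an element on the opposite strand reads in reverse complement:
CEBPG (chr19:33374061-33374088, plus strand): gcgcggcgtcTGATGCAAcctgccggca
ASNS (chr7:97872459-97872486, minus strand): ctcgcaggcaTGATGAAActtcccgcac
SLC3A2 (chr11:62881726-62881748, plus strand): gcaggactccTTACATCAgctcc
SLC1A5 (chr19:46784894-46784921, minus strand): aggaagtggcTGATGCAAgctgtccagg
SLC7A1 (chr13:29595664-29595691, minus strand): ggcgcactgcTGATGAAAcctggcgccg
SLC1A4 (chr2:64989382-64989409, plus strand): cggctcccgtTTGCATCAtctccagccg
AARS1 (chr16:70289676-70289703, minus strand): tttctcgcagTTGCATCAgccaagttag
CARS1 (chr11:3057408-3057435, minus strand): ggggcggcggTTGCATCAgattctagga
GARS1 (chr7:30594835-30594862, plus strand): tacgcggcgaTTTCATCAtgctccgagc
IARS1 (chr9:92293693-92293720, minus strand): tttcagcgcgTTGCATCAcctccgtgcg
MARS1 (chr12:57488054-57488081, plus strand): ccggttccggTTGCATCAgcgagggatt
NARS1 (chr18:57621805-57621832, minus strand): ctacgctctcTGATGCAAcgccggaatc
TARS1 (chr5:33440957-33440984, plus strand): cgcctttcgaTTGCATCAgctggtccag
A match describes the sequence, and binding was not measured.

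The ER stress response element, CCAAT and CCACG separated by 9 bases, was found in 0 of the 36 genes, and in 0.0916% of all genes with an entry. Of the 11 genes called different from vector on either array, 9 had a promoter entry, and ASNS was the only 1 of these with a match. The 250 bases before its start site are shown with the element in capitals, which begins 68 bases before the start:
ASNS (chr7:97872409-97872658, minus strand): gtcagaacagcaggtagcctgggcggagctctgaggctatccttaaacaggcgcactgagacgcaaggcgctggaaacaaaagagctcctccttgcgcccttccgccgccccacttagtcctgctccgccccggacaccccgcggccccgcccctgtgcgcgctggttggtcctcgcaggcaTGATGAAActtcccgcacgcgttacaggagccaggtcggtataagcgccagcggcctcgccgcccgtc

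With nm23-H2, most of these genes were higher than with vector. Above 0 were 38 of 43 (background 40.0% of all measured genes) and below 0 were 5 (background 54.5%). The median difference was 0.62, against -0.06 for all measured genes. At least 2-fold higher were 9 of 43 (background 3.54%), and 0 were at least 2-fold lower (background 3.62%), although PHGDH was at least 1.5-fold lower. The 9 were the regulators TRIB3, DDIT3, DDIT4, GADD45A, CEBPB, PPP1R15A and ATF4, the enzyme gene ASNS and the synthetase gene VARS1. At 1.5-fold the counts were 22 higher (background 10.5%) and 1 lower (background 14.3%). Without scaling, 18 genes were at least 2-fold higher, beside 630 of all 7956 measured genes, whose median was itself 0.17. Among genes above the floor on all 3 arrays, the median was 0.54 for 41 members and -0.07 for all 5950.

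With nm23-H1 the genes did not move one way. Above 0 were 21 of 43 (background 49.5%) and below 0 were 22 (background 47.8%), and the median difference was -0.01, against 0 for all measured genes. TRIB3 and ALDH18A1 were at least 2-fold higher, 2 of 43 (background 2.16%), and STC2 was at least 2-fold lower, 1 of 43 (background 1.71%). At 1.5-fold, 3 were higher (background 8.56%) and 5 lower (background 7.52%).

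**Figure D1:**
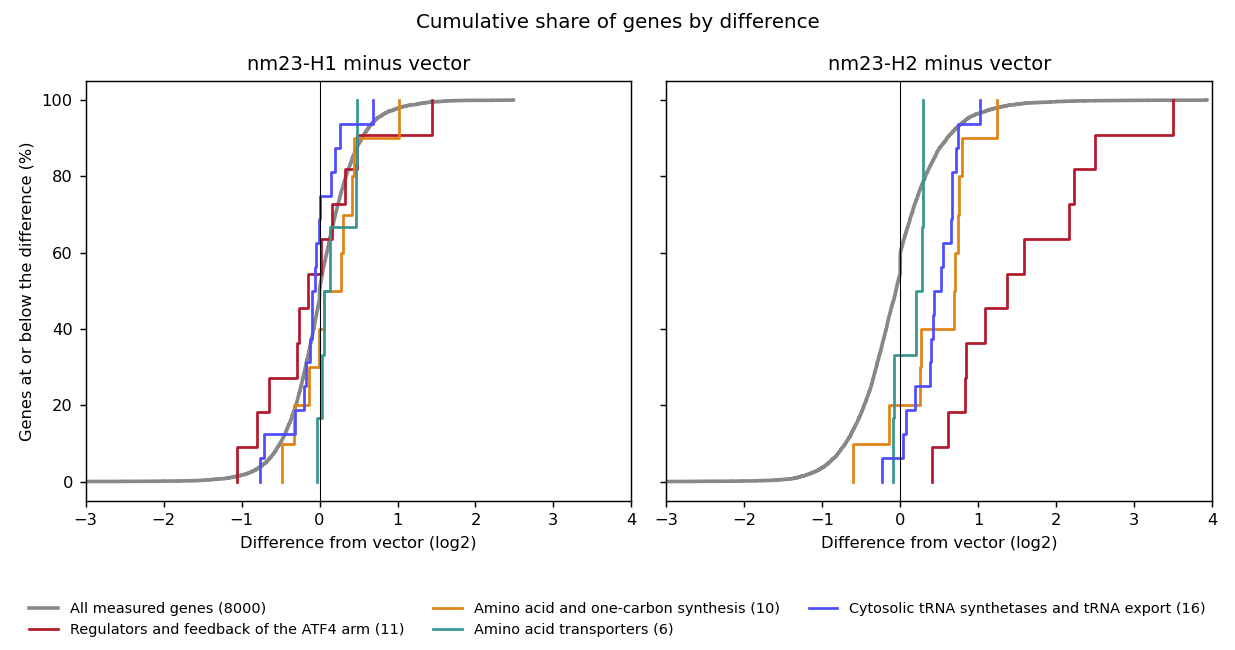
Cumulative share of genes (vertical axis, %) at or below each log2 difference from vector (horizontal axis) for nm23-H1 (left) and nm23-H2 (right), with all 8000 measured genes in grey and the 4 roles in colour. With nm23-H2 the regulators lie furthest to the right, with a median of 1.37, and the transporters, with a median of 0.24, lie closest to all genes.

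Among the regulators, all 11 measured were higher with nm23-H2 than with vector (background 40.0%). Their median difference was 1.37, against -0.06 for all measured genes, and the range was from 0.41 to 3.50. ATF4 itself was at 921 units with vector, 528 with nm23-H1 and 1958 with nm23-H2. The nm23-H2 level was 2.13-fold that of vector (log2 difference 1.09, probe error 0.36), and the nm23-H1 level was 1.75-fold below vector (-0.80, probe error 0.33). ATF4 was thus lowest with nm23-H1 and highest with nm23-H2, and the distance between these arrays was 3.71-fold.

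DDIT3 encodes CHOP, a transcription factor that ATF4 induces. Its probe set gave 125 units with vector, 127 with nm23-H1 and 704 with nm23-H2, so that nm23-H2 stood alone at 5.64-fold the vector level. CEBPB, a C/EBP factor that pairs with ATF4, was at 950, 1062 and 2858 units on the same arrays, again with only nm23-H2 apart, at 3.01-fold. CEBPG, a further partner of ATF4, was at 87.8, 73.1 and 117 units, and its difference of 0.41 with nm23-H2 was little more than the probe error.

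TRIB3 encodes a pseudokinase that binds ATF4 and limits its activity. It was at 267 units with vector, 724 with nm23-H1 and 3026 with nm23-H2, so both transfectants were above vector, by 2.71-fold and 11.3-fold. Relative to its chromosome neighbours these were 1.32-fold, no longer past the threshold, and 6.68-fold. PPP1R15A, also called GADD34, brings a phosphatase to eIF2 and so ends the response. It was at 134, 85.4 and 347 units, which was 1.57-fold below vector with nm23-H1 and 2.59-fold above it with nm23-H2. Its further probe set differed more with nm23-H2, by 2.82 against 1.37, from a vector level of 34.2 units, near the floor. With nm23-H1 this further probe set was below the floor, so its -0.27 against -0.65 is a bound.

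DDIT4, also called REDD1, inhibits the growth kinase mTORC1. It was at 472 units with vector, 594 with nm23-H1 and 2217 with nm23-H2, which was 4.70-fold vector on the last array. GADD45A, a gene of growth arrest and DNA damage, was at 34.5, 31.3 and 155 units. Its nm23-H2 level was 4.49-fold that of vector, but the other levels lay just above the floor, and a floor at the 70th percentile gave a log2 difference of 1.23 in place of 2.17.

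STC2, which encodes the secreted glycoprotein stanniocalcin 2, separated the transfectants in opposite directions. It was at 100.4 units with vector, 48.4 with nm23-H1 and 179 with nm23-H2, 2.07-fold below vector and 1.79-fold above it. With nm23-H1 it was within 2-fold of vector under 5 of 10 alternatives. Its further probe set did not exceed the floor with vector or with nm23-H1, and was at least 0.70 higher with nm23-H2. NUPR1, a small stress-induced chromatin protein, was at 39.4, 32.4 and 60.4 units, and VLDLR, a lipoprotein receptor, at 26.0, 39.4 and 50.6 units. Both were near the floor, and the folds of VLDLR, at least 1.39 and at least 1.78, are bounds because the vector array was at the floor.

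**Figure D2:**
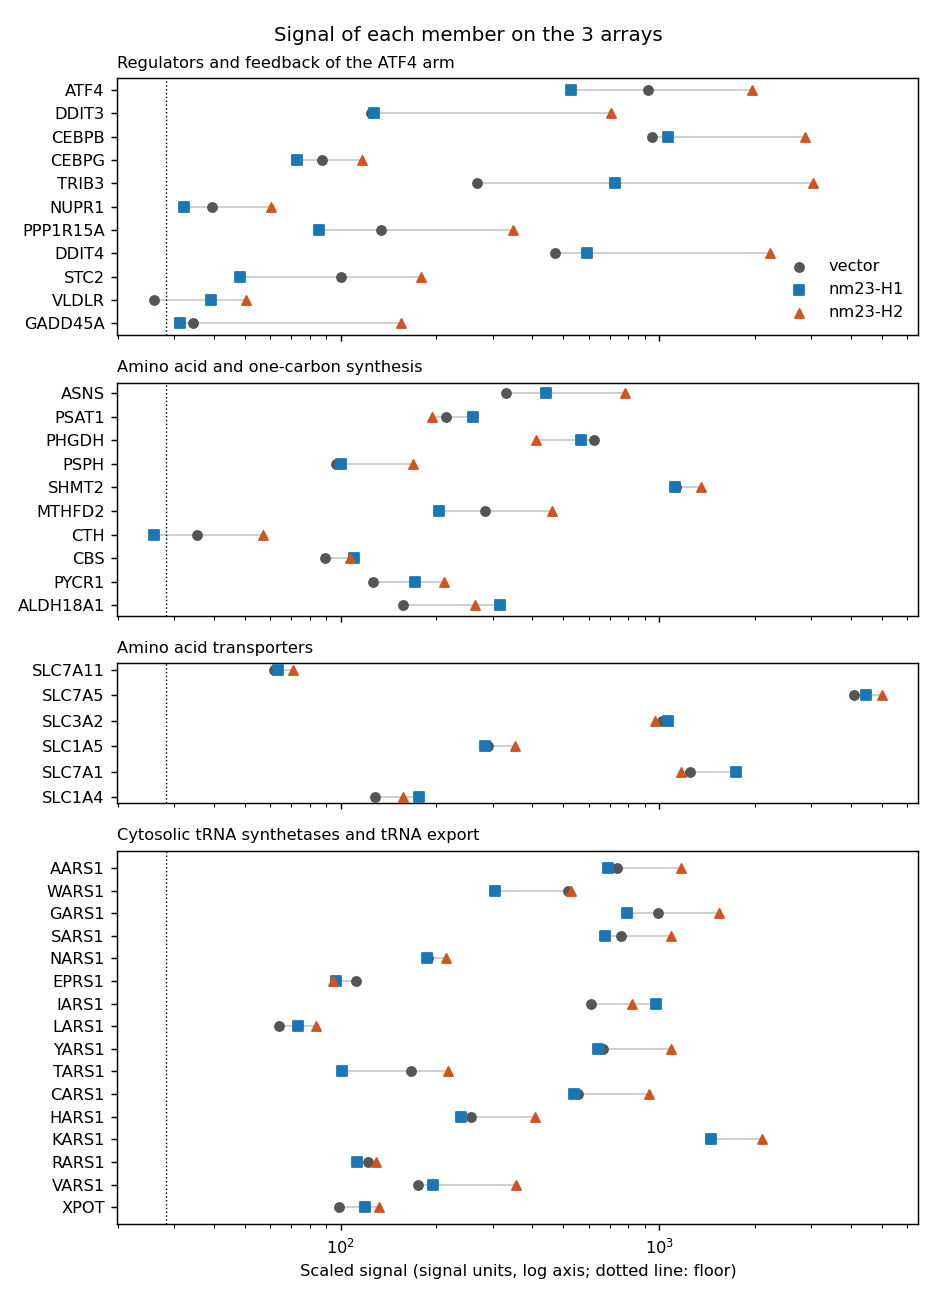
Scaled signal (horizontal log axis, signal units) of the 43 measured genes on the vector (circle), nm23-H1 (square) and nm23-H2 (triangle) arrays, 1 array each, with the floor of 28.3 units as a dotted line. The nm23-H2 signal is the highest for all 11 regulators, whereas the 3 arrays lie close together for the transporters.

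In amino acid and one-carbon synthesis, 8 of 10 genes were above 0 with nm23-H2 (background 40.0%). Their median was 0.69, against -0.06 for all measured genes, and 1 was at least 2-fold higher (background 3.54%). That was ASNS, asparagine synthetase, at 330.1 units with vector, 441 with nm23-H1 and 783 with nm23-H2, which was 2.37-fold the vector level. ASNS was also above vector with nm23-H1, by 1.34-fold (0.42, probe error 0.33).

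The 3 genes of serine synthesis did not move together. PHGDH, its first enzyme, was at 623 units with vector, 567 with nm23-H1 and 410.2 with nm23-H2, or 1.52-fold below vector on the last. Its other probe set, also annotated to MZT2A and MZT2B, was at 698, 672 and 674 units, and so did not show that difference. PSAT1, the second enzyme, was at 215, 261 and 194 units, with log2 differences of 0.28 and -0.15. PSPH, the last enzyme, was at 97.1, 101 and 168 units, 1.73-fold above vector with nm23-H2, while its further probe set gave 0.36 in place of 0.79.

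In mitochondrial one-carbon metabolism, MTHFD2, a folate dehydrogenase, was at 284 units with vector, 203 with nm23-H1 and 461 with nm23-H2. These were 1.40-fold below and 1.62-fold above vector, so this gene lay on opposite sides of vector in the transfectants. SHMT2, which takes serine to glycine, was at 1128, 1122 and 1354 units, and all 3 of its probe sets were above 0 with nm23-H2 (0.26, 0.45 and 0.64).

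Both genes of proline synthesis in the list had signals above vector on each transfectant array, and ALDH18A1 with nm23-H1 was the 1 value of these past 2-fold. ALDH18A1, its first enzyme, was at 157 units with vector, 317 with nm23-H1 and 264 with nm23-H2, 2.02-fold and 1.68-fold the vector level. PYCR1, its last enzyme, was at 126, 171 and 211 units, 1.36-fold and 1.67-fold. ALDH18A1 and TRIB3 were the only 2 genes of the list called higher with nm23-H1, and with 16 units added in place of the floor ALDH18A1 was at 0.95, under 2-fold.

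The transsulfuration genes, which make cysteine from homocysteine, were low. CBS was at 89.7, 110.4 and 107 units on the vector, nm23-H1 and nm23-H2 arrays, within the probe error of each other. CTH was at 35.4, 25.9 and 57.2 units, near or below the floor on 2 of them. Its log2 difference of 0.69 with nm23-H2 was 0.03 by its further probe set.

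With nm23-H2, the amino acid transporters had the median nearest 0 of the 4 roles. The median differences of the 6 were 0.09 with nm23-H1 and 0.24 with nm23-H2, and the nm23-H2 values ranged from -0.10 to 0.29. None of the 6 was 1.5-fold different from vector. Of all measured genes, 8.56% were higher and 7.52% lower with nm23-H1, and 10.5% and 14.3% with nm23-H2. For 6 genes, 0 is near these shares. SLC7A5, the large neutral amino acid transporter, was at 4079 units with vector, 4459 with nm23-H1 and 4996 with nm23-H2, and SLC3A2, its heavy chain partner, at 1020, 1064 and 968. SLC7A11, the cystine importer, was at 62.0, 63.5 and 71.0 units, and its further probe sets differed by 0.71 and 0.23 with nm23-H2 in place of 0.20. SLC1A5, a glutamine carrier, was at 290.3, 284 and 354 units.

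SLC7A1 and SLC1A4 were the 2 transporters with the largest differences with nm23-H1. SLC7A1, the cationic amino acid carrier, was at 1248 units with vector, 1735 with nm23-H1 and 1166 with nm23-H2. Its 4 probe sets above the floor were all higher with nm23-H1 (0.48, 0.63, 0.79 and 1.35), and did not share a direction with nm23-H2 (from -0.80 to 0.48). SLC1A4, a serine and alanine carrier, was at 128, 176 and 157 units, and its 4 probe sets were higher with nm23-H1 by 0.15 to 0.46. With nm23-H2 the probe set used gave 0.29, and the further ones -0.20, 0.53 and -0.17, so they did not share a direction.

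The tRNA synthetases, which attach each amino acid to its tRNA, were slightly higher with nm23-H2 as a group. Of 15 measured, 14 were above 0 (background 40.0%) and 6 were at least 1.5-fold higher (background 10.5%). Their median was 0.52, a 1.44-fold difference, against -0.06 for all measured genes. VARS1, for valine, was the only 1 of them at 2-fold, at 175 units with vector, 195 with nm23-H1 and 355 with nm23-H2. Its log2 difference of 1.02 was just past the threshold, its further probe set went the other way (-0.41), and under 5 of 9 alternatives it was below 2-fold.

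The others at 1.5-fold or more were CARS1 for cysteine (557 units with vector and 929 with nm23-H2), YARS1 for tyrosine (667 and 1091), HARS1 for histidine (256 and 406), AARS1 for alanine (738 and 1169) and GARS1 for glycine (987 and 1544). These 5 were 1.56-fold to 1.67-fold the vector level. On the nm23-H1 array CARS1, YARS1, HARS1, AARS1 and GARS1 stood at 541, 643, 239, 691 and 791 units. Each was below its vector level by less than the probe error of 0.33. Before scaling, CARS1, YARS1, HARS1 and AARS1 were slightly above vector, so their direction depended on the scaling. CARS1 had a further, dimmer probe set that was above vector on both arrays (0.72 and 0.97).

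KARS1 for lysine was at 1443 units with vector, 1454 with nm23-H1 and 2104 with nm23-H2, and SARS1 for serine at 758, 675 and 1090. Their nm23-H2 differences of 0.54 and 0.52 exceeded the probe error of 0.36, although the further probe set of KARS1 gave 0.28. IARS1 for isoleucine was at 609, 979 and 822 units, the synthetase with the largest difference above vector with nm23-H1 (1.61-fold). LARS1 for leucine was at 64.0, 73.4 and 84.0 units by a probe set that can bind related transcripts (its name ends in _x_at), and differed by 0.39 with nm23-H2.

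WARS1 and TARS1, for tryptophan and threonine, were the synthetases furthest below vector with nm23-H1. WARS1 was at 515 units with vector, 305 with nm23-H1 and 530 with nm23-H2, 1.69-fold below vector on the nm23-H1 array. TARS1 was at 166, 101 and 217 units, 1.64-fold below vector with nm23-H1 and 1.31-fold above it with nm23-H2. For WARS1 the further probe set gave -0.39 with nm23-H1 in place of -0.76, and -0.37 with nm23-H2 in place of 0.04.

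Small differences with nm23-H2 were seen for NARS1 for asparagine (188 units with vector and 214 with nm23-H2), RARS1 for arginine (122 and 129) and EPRS1 for glutamate and proline (112 and 94.9). The EPRS1 difference was -0.23 by the probe set used and 0.51 by a further one, so its direction was not settled. MARS1, through the 2 shared probe sets above the floor, was at 726 and 299 units with vector, 768 and 285 with nm23-H1, and 815 and 376 with nm23-H2. XPOT, the exporter that carries tRNA out of the nucleus, was at 98.8, 119 and 132 units on the vector, nm23-H1 and nm23-H2 arrays.

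**Figure D3:**
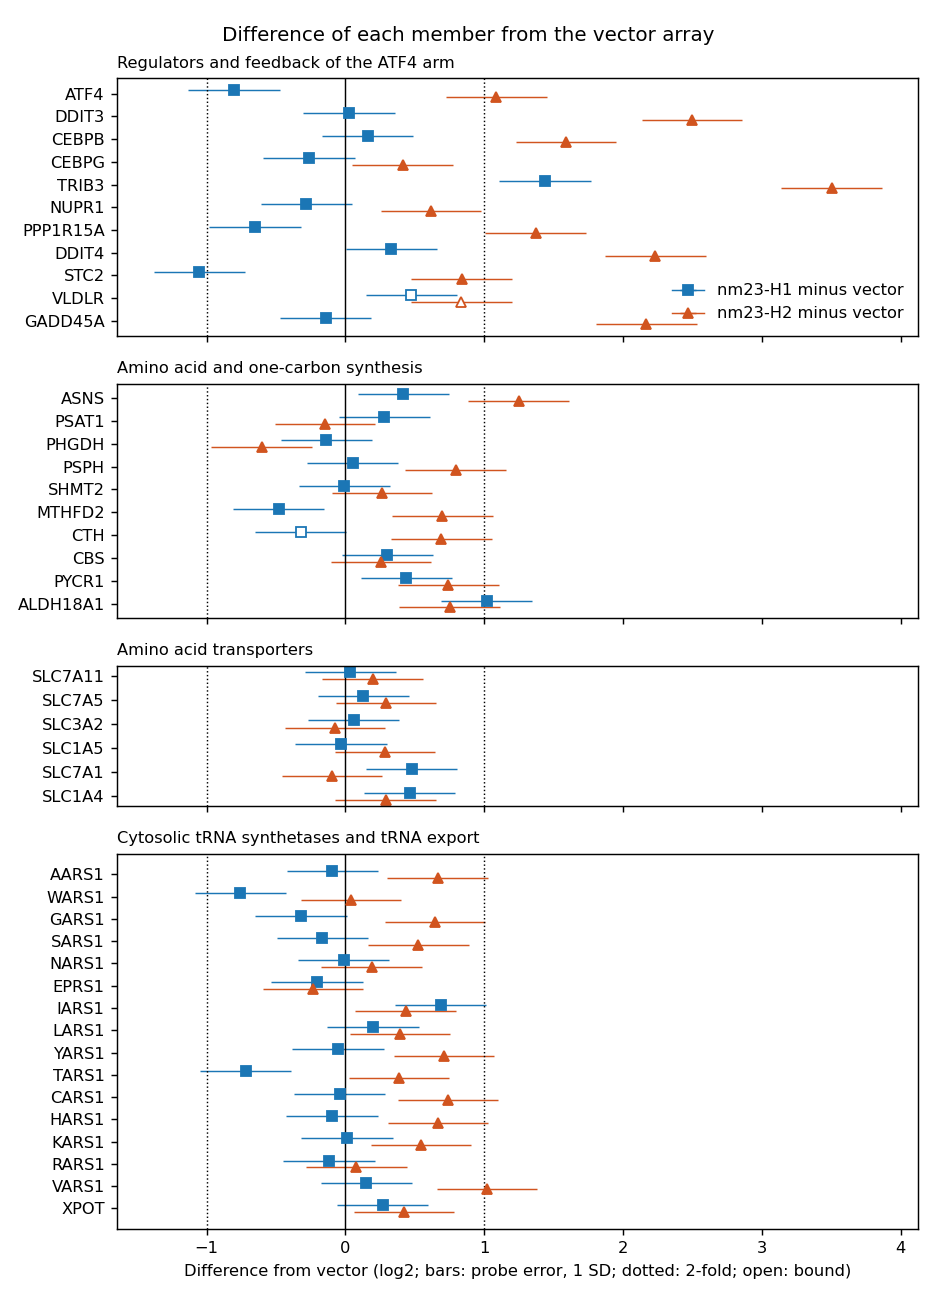
Log2 difference from vector (horizontal axis) of the 43 measured genes for nm23-H1 (blue squares) and nm23-H2 (orange triangles), with bars of 1 SD of the probe error, dotted lines at 2-fold and open symbols for bounds. All 11 regulators are to the right of 0 with nm23-H2, and 14 of 15 synthetases are to the right of 0 but mostly within 2-fold.

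Set directly against each other, the nm23-H1 array was below the nm23-H2 array for most of these genes. Below 0 were 34 of 43 (background 39.2%) and above 0 were 9 (background 56.2%), and the median difference was -0.69, against 0.08 for all measured genes. Lower by 2-fold or more with nm23-H1 were 11 of 43 (background 3.74%), and higher were 0 (background 3.74%). At 1.5-fold, 23 were lower (background 10.5%) and 0 higher (background 16.2%). By role, the 11 were 8 regulators, MTHFD2, CTH and TARS1. The regulators were DDIT3 (-2.47), GADD45A (-2.31), TRIB3 (-2.06), PPP1R15A (-2.02), DDIT4 (-1.90), ATF4 and STC2 (both -1.89) and CEBPB (-1.43). CTH was at -1.01, a bound because the nm23-H1 array was below the floor, and was within 2-fold under 3 of 9 alternatives. Its further probe set gave -0.23, also a bound. STC2 was within 2-fold under 1 of 10 alternatives (-0.70 with plain _at probe sets), as was TARS1 (-0.99 with 16 units added). This comparison shares both arrays with those against vector and is not independent of them.

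Some of the values with nm23-H1 stood beside neighbouring genes on the chromosome that differed in the same direction. The median of up to 25 measured genes on either side was taken for each gene. TRIB3 lies at chr20:380760-397559 (GRCh38.p14), and its 26 neighbours had a median of 1.04 with nm23-H1 and 0.76 with nm23-H2. Relative to these neighbours, TRIB3 was 0.40 higher with nm23-H1 and 2.74 higher with nm23-H2. It was therefore no longer called with nm23-H1, where its value of 1.44 stood, and 1 gene in place of 2 was called higher.

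For WARS1 on chromosome 14 the neighbours had a median of -0.40 with nm23-H1 and -0.31 with nm23-H2, and the gene relative to them was at -0.35 and 0.35. For ATF4 on chromosome 22 the neighbours were at -0.23 with nm23-H1, and the gene relative to them at -0.58. For VLDLR on chromosome 9 they were at 0.31, and the gene at 0.16 relative to them. The neighbours of STC2 were at -0.02 and those of ALDH18A1 at 0.01, so these 2 calls with nm23-H1 did not change. With nm23-H2, 8 genes in place of 9 were called higher relative to neighbours, VARS1 being the one lost at 0.87. The part of DNA copy number in these values was not tested.

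**Figure D4:**
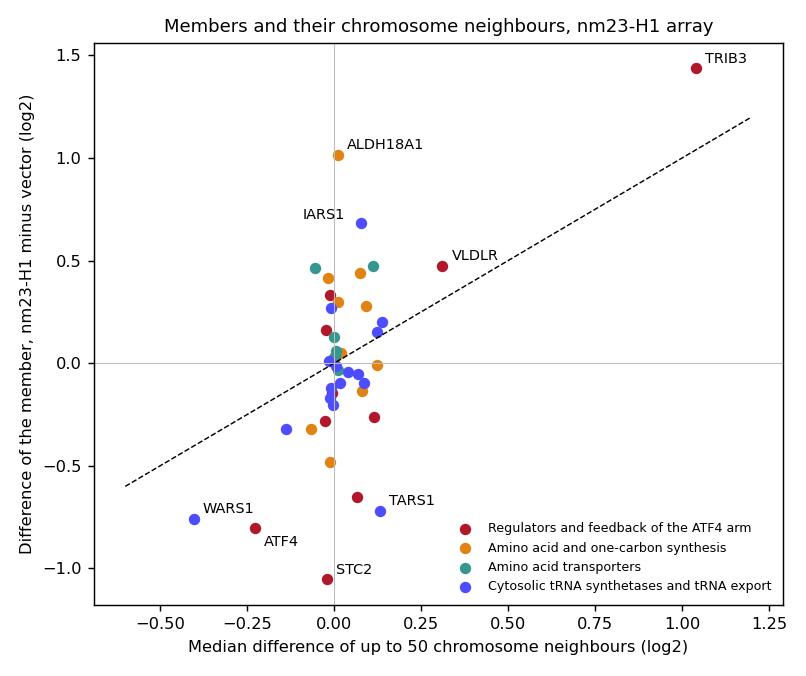
Log2 difference of each of the 43 genes between nm23-H1 and vector (vertical axis) against the median difference of up to 50 measured neighbours on its chromosome (horizontal axis), coloured by role, with the line of equality dashed. TRIB3 stands at 1.44 beside neighbours at 1.04, while STC2 and ALDH18A1 lie far from 0 beside neighbours near 0.

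Where a gene had further probe sets, these did not always repeat its direction. With nm23-H2, 11 of 18 further probe sets above the floor, from 12 genes, went the same way as the one used, and the median disagreement was 0.48. With nm23-H1 it was 11 of 16, from 10 genes, with a median disagreement of 0.31. Only PPP1R15A and VARS1 of the 9 genes called higher with nm23-H2 had a further probe set, so 7 of the 9 rest on 1 probe set each.

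**Figure D5:**
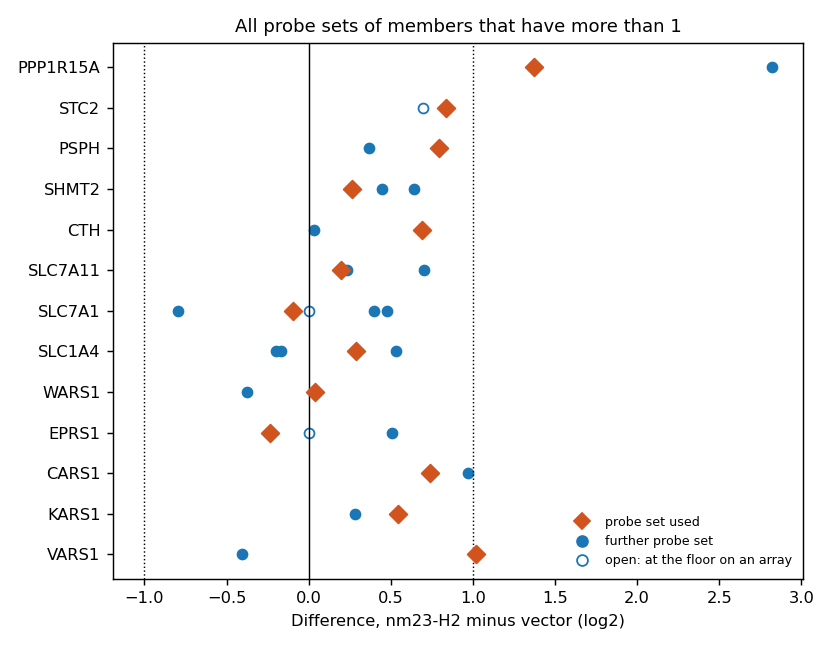
Log2 difference between nm23-H2 and vector (horizontal axis) for every probe set of the 13 genes with more than 1, with the probe set used as a diamond, further ones as circles, and open symbols where an array was at the floor. PPP1R15A is above 2-fold by both of its probe sets, while the 2 probe sets of VARS1 lie on opposite sides of 0.

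The genes holding the C/EBP-ATF response element shown above had a smaller median difference with nm23-H2 than those without it. The groups differ in role, since 4 of 5 transporters with an entry had a match and 9 of 10 regulators had none. These roles had nm23-H2 medians of 0.24 and 1.37. The 12 measured genes with the element had a median of 0.40 with nm23-H2, 10 of them above 0 (background 40.0%) and ASNS alone at 2-fold (background 3.54%). The 22 with a promoter entry and no match had a median of 0.68, with 19 above 0 and 6 at 2-fold. With nm23-H1 the medians were -0.02 and -0.04.

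Further genes of the pathway, taken from lists drawn up alongside, gave a mixed picture. Of 10 measured genes for eIF2, its kinases and its exchange factor eIF2B, 5 were above 0 with nm23-H2 (background 40.0%). None was 2-fold higher or lower, against 3.54% and 3.62% of all measured genes, and the median was 0. With nm23-H1, EIF2S1, the phosphorylated subunit of eIF2, was 2.13-fold below vector (883 against 414 units), and its further probe sets were at -0.73 and -0.71. Its neighbours on chromosome 14 had a median of -0.23.

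Of 15 further genes linked to ATF4, 5 were at least 2-fold higher (background 3.54%) and 1 lower (background 3.62%) with nm23-H2. With nm23-H1, 1 was higher (background 2.16%) and 2 were lower (background 1.71%). CHAC1, which degrades glutathione, was at 113 units with vector, 20.2 with nm23-H1 and 303 with nm23-H2, at least 3.98-fold below vector and 2.69-fold above it. ATF3, a stress transcription factor, was at 65.2, 57.2 and 246 units, 3.78-fold above vector with nm23-H2. VEGFA, an angiogenic growth factor, was at 182, 25.1 and 563 units by the probe set used. Its nm23-H1 level was below the floor, so that difference of -2.68 is a bound. The 3 further probe sets of VEGFA were also below vector with nm23-H1 (-0.36 to -0.89) and above it with nm23-H2 (0.55 to 1.40). Of these, the value of -0.45 with nm23-H1 is a bound too. CHAC1 and VEGFA thus lay below vector with nm23-H1 and above it with nm23-H2. TXNIP, which limits glucose uptake, showed the opposite order, at 317 units with vector, 692 with nm23-H1 and 128 with nm23-H2. It was the 1 gene of these 15 called higher with nm23-H1 and the 1 called lower with nm23-H2. Its 3 probe sets gave 1.13 to 1.46 with nm23-H1 and -1.31 to -2.13 with nm23-H2, the last a bound because that array was at the floor.

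The cytosolic synthetase list outside the members held 2 measured genes, named after their values were seen. FARSA, for phenylalanine, was at 357 units with vector, 392 with nm23-H1 and 687 with nm23-H2. Its nm23-H2 difference of 0.94 was larger than that of any synthetase of the list except VARS1. AIMP1, a scaffold of the synthetase complex, was at 151, 113 and 119 units.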

How the data were processed

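The authors deposited 1 table of linear signal intensity per probe set, made with MAS5 per the submitters' processing notes. Its version and scaling target are not given in the sources used here, and no detection calls were used. The 3 arrays were multiplied (vector 1.11, nm23-H1 1.03, nm23-H2 0.881) to bring the mean between the 2nd and 98th percentiles to their geometric mean. Values below the pooled median were set to that floor, and log2 was taken. This shrinks the differences of dim genes and makes folds against floored values bounds.

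Of 22283 probe sets, 19071 were annotated to 1 symbol, 1043 to several and 2169 to none. For each gene 1 probe set was used, not ending in _x_at where possible, then the brightest on average. With 1 array per group no test was possible, and the number of arrays limits the precision. The members and lists were chosen with earlier results of these data known. Every measured member was named, and for each other list up to 4 genes with the largest difference at 2-fold or more from vector.

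Alternatives for scaling were none, a common median above the floor, and quantiles. Those for dim values were a floor at the 25th or the 70th percentile, or 16 units added and no floor. For probe sets they were averaging all of a gene, plain _at names only, and choosing without the nm23-H2 array. A threshold of 1.5-fold, the list's mean, and subtraction of chromosome neighbours were also tried. A median was taken as moved when it shifted by more than the probe error over the square root of the number of genes. Annotation, positions and promoters came from reference tables of assembly GRCh38.p14. The steps were tested on simulated data. Python 3.11.15, numpy 2.4.6, pandas 2.3.3 and matplotlib 3.10.9 were used.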

Additional observations from a re-analysis of the deposited data

How the results depend on the processing

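The 9 genes at least 2-fold higher with nm23-H2 became 18 without scaling. Among all measured genes the count rose from 283 of 8000 to 630 of 7956. At 1.5-fold, 22 genes of the list were higher (background 10.5%) and 1 lower (background 14.3%). Under the other alternatives the count of 9 stayed within 1.5 times, and the count of 0 lower genes stayed at 0. The median of 0.617 was 0.946 without scaling, 0.531 with a common median above the floor, 0.534 with the floor at the 70th percentile, 0.515 with 16 units added, 0.451 when probe sets were averaged, and 0.696 as a mean. All measured genes shifted by 0.23 without scaling.

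With nm23-H1, 1 gene in place of 2 was higher with 16 units added, with plain _at probe sets and after subtraction of neighbours. The 1 lower gene, STC2, became 0 without scaling, with the floor at the 70th percentile, with 16 units added, when probe sets were averaged and with plain _at names, and 5 at 1.5-fold. The median of -0.00847 was 0.102 without scaling, where all measured genes shifted by 0.084, and -0.108 with plain _at probe sets.

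For nm23-H1 against nm23-H2, 11 lower genes became 23 at 1.5-fold (background 10.5%). The median of -0.691 was -0.91 without scaling, where all measured genes shifted by -0.15. It was -0.593 with a common median, -0.516 when probe sets were averaged, -0.761 with plain _at probe sets and -0.765 after subtraction of neighbours. No called gene changed sign under any alternative listed for it, although STC2 with nm23-H1 was at 0 with plain _at probe sets. VARS1 has no plain _at probe set. Its further probe set, at -0.41 with nm23-H2, therefore entered only the average, which gave 0.305. With plain _at probe sets 26 genes were left. No paired analysis was possible because each group had 1 array.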

Other observations

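Of 17 measured genes of the ER chaperone and ATF6/XBP1 arm, 8 were at least 2-fold higher with nm23-H2 (background 3.54%) and 0 lower (background 3.62%). Their median was 0.84, against -0.06 for all measured genes. This list overlaps with the ATF4 lists, since XBP1 (1.24 with nm23-H2) is counted here and among the 15 further genes linked to ATF4. Of this list, only HERPUD1 and HSPA5 were looked up for promoter matches. A HERPUD1 promoter holds the C/EBP-ATF element (4.46% of all genes with an entry). An HSPA5 promoter holds the ER stress response element (0.0916% of these genes). HERPUD1, an ER membrane protein of protein degradation, was at 186 units with vector, 177 with nm23-H1 and 1406 with nm23-H2, and HSPA5, the chaperone BiP, at 757, 818 and 3865. DNAJB9 and SDF2L1, ER co-chaperones, were 4.45-fold and 2.62-fold above vector with nm23-H2. With nm23-H1, 0 of the 17 were at least 2-fold higher (background 2.16%) or lower (background 1.71%).

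Among further amino acid and folate enzymes, GCLM, a subunit of the enzyme that starts glutathione synthesis, was above vector on both arrays, at 52.1, 151 and 174 units. ODC1, the first enzyme of polyamine synthesis, was at 1045, 780 and 2766 units. MAT2A, which makes S-adenosylmethionine, and GLUL, glutamine synthetase, were 2.65-fold and 2.06-fold below vector with nm23-H2, and their further probe sets went the same way (-0.79 for MAT2A, and -1.33 and -0.85 for GLUL).

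All 9 measured mitochondrial synthetases were above 0 on both arrays, against 49.5% of all measured genes with nm23-H1 and 40.0% with nm23-H2. Their medians were 0.36 with nm23-H1 and 0.63 with nm23-H2, against 0 and -0.06 for all measured genes. CARS2 was the largest with nm23-H2, at 215 units with vector and 621 with nm23-H2. LARS2 was 2.09-fold above vector with nm23-H1, but 0.18 by its further probe set. Of 11 further amino acid transporters, SLC6A8, the creatine carrier, was at 46.3, 93.3 and 184 units, while SLC7A8, a neutral amino acid carrier, was at 316, 138 and 139.5 units. The further probe sets of SLC6A8 differed less, by 0.45 and 0.24 with nm23-H1 and 0.89 and 1.08 with nm23-H2, against 1.01 and 1.99. The brightest further probe set of SLC7A8 gave -0.93 and -0.79, against -1.20 and -1.18. A dimmer one, at 40.7 units with vector, went the other way with nm23-H1 (0.33) and was at -0.52 with nm23-H2, a bound. Another dim one, at 43.3 units with vector, was at -0.61 on both arrays, also bounds. The chromosome neighbours of SLC7A8 had medians of -0.20 with nm23-H1 and -0.10 with nm23-H2. Of 13 genes of mTORC1 and amino acid sensing, RRAGA, a GTPase that recruits mTORC1, was the only 1 past 2-fold against vector, 2.50-fold higher with nm23-H1 (background 2.16%), beside chromosome neighbours at 0.41. Between the transfectants RPS6KB2, an S6 kinase named after its value was seen, was at -1.17 (background 3.74% lower).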
